A study of Danio rerio with 697 samples.

Results

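The enzymes of de novo purine synthesis were followed through single cells sorted from the islets of zebrafish larvae. The set holds 8 of the 32520 genes in the table, listed by name from the pathway: *ppat*, *gart*, *pfas*, *paics*, *adsl*, *atic*, *impdh1b* and *gmps*. All 8 were matched to a row. Their levels were set side by side in wells rich in iridophore transcripts and in wells rich in insulin transcripts, and then between treatment groups.

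Cells make purines on an activated ribose, phosphoribosyl pyrophosphate (PRPP), and close the ring stepwise to inosine monophosphate (IMP). The first committed step is catalysed by *ppat*, and *gart*, *pfas*, *paics*, *adsl* and *atic* carry the intermediate on to IMP. IMP is then converted to guanosine monophosphate (GMP) by IMP dehydrogenase, for which *impdh1b* is one zebrafish gene, and GMP synthetase, *gmps*. Iridophores are the silvery pigment cells of fish, whose reflecting platelets are crystals made largely of guanine, and zebrafish mutants in *gart* and *paics* have pigment cell defects. Pancreatic beta cells make and release insulin and are not known for guanine deposits.

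The study examined beta cells under calcium overload. Its larvae carried *Tg(ins:Kaede)*, in which the *insulin* promoter drives a fluorescent protein, and in the 24-h and 48-h groups also *Tg(ins:TRPV)*, in which that promoter drives a cation channel opened by capsaicin (csn). The 48-h group was *Tg(ins:TRPV);Tg(ins:Kaede)*, given csn between 3 and 5 days post fertilization (dpf), and came in 2 sets whose difference is not explained. The 24-h group had the same genotype and was given csn from 4 to 5 dpf by the labels, while the study's text has the treatment start at 3 dpf, so the age at collection is uncertain. The control was *Tg(ins:Kaede)* without the channel, given csn from 3 to 5 dpf, so every larva received csn, and 20 larvae per group are stated. Fluorescent, calcein-stained cells were sorted 1 to a well and amplified by Smart-seq2, which has no tags on molecules. Each group is 1 sample on 1 plate with cells pooled over larvae, so treatment and plate cannot be told apart, wells were not treated as replicates, and no test between groups was made. Intervals on levels are exact Poisson and those on shares are exact Clopper-Pearson at 95%, and both cover counting error only.

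Of 693 wells, 650 were kept, each with 200 or more genes detected and no more than 40% of its counts on mitochondrial protein-coding genes. Wells in which *defbl1* and *apodb* together reached 1% of gene counts are called iridophore-gene wells, and wells with more than 1000 counts of *ins* are called high-*ins* wells. All 33 iridophore-gene wells came from the 48-h group, 26 from set 1 and 7 from set 2. The high-*ins* wells numbered 239 at 48 h, 136 at 24 h and 165 in the control, and no well met both limits. At 48 h, 57 kept wells fell in neither class. Iridophore-gene wells had 1986 to 736827 gene counts (median 400139), and the 48-h high-*ins* wells had 11807 to 1084018 (median 447477), so the middle wells of both classes were of similar depth. The *defbl1* and *apodb* share was 1.81% in the lowest well inside the limit and 0.980% in the highest well outside it. Neither of these wells, with 1986 and 6942 gene counts, had any count of the 8 genes.

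The iridophore-gene class also carried iridophore markers that did not define it. The marker lists were chosen with earlier results of these data known, so they are no independent check of the name. Of 15 other iridophore markers, 13 had at least 50 counts and 12 of these were at least 4-fold higher in iridophore-gene wells. Among the 12, *ltk*, *tfec*, *alx4a*, *alx4b*, *alx1* and *sox10* had fewer than 50 counts in high-*ins* wells. They passed through the iridophore-gene wells, so their passing already implied a difference, and *ltk* rested on 1 well. The summed level of the 15 markers ran over wells between 3810 and 38240 CPM (counts scaled to 1000000 gene counts), against 0 to 678 CPM in high-*ins* wells. *mitfa* was at 0 in iridophore-gene wells. The beta cell list includes *ins*, which defines the high-*ins* wells. Its markers summed to 776 CPM in iridophore-gene wells and 127712 CPM in high-*ins* wells, of which *ins* gave 734 and 120300 CPM. Of 10 beta cell markers measured, 9 were at least 4-fold lower in iridophore-gene wells, *ins* among them, and 0 were higher. Among the 9, *mnx1*, *neurod1*, *pax6b*, *isl1*, *insm1a*, *pcsk2* and *g6pcb* had fewer than 50 counts in iridophore-gene wells. They passed the count limit through the high-*ins* wells, so their passing already implied a difference. Of all 10558 genes with at least 50 counts over both classes, 15.5% were at least 4-fold higher in iridophore-gene wells and 43% lower. The called markers of each list are to be read against these shares. Alpha cell markers summed to 29.5 CPM in iridophore-gene wells and 6055 CPM in high-*ins* wells, with up to 241091 CPM in 1 well. For delta cell markers these were 147, 18123 and 613182 CPM, so high-*ins* wells also held other hormone transcripts. Markers of other cells also differed. Of the 5 ductal markers, *anxa4* (10011 and 216 CPM in iridophore-gene and high-*ins* wells) and *krt18a.1* had enough counts and both were at least 4-fold higher, with a summed level of 424 to 35552 CPM over iridophore-gene wells and 0 to 18576 CPM over high-*ins* wells, while *cftr*, *sox9b* and *her15.1* were at 0 in iridophore-gene wells. Of the 7 melanophore markers, 3 had enough counts and all 3 were at least 4-fold higher (summed level 0 to 2725 CPM over iridophore-gene wells and 0 to 4.49 CPM over high-*ins* wells), while *tyrp1b*, *tyr* and *pmela* were at 0 in iridophore-gene wells. Of these 3, *dct* and *slc24a5* had 98.9% and 98.3% of their iridophore-gene counts in 1 well each, and *mlpha* reached 5 counts in 7 of 33 wells. Endothelial *kdrl* (1 well) and fibroblast *lum* (5 wells) were higher as well, with *cdh5*, *col1a1a* and *dcn* at 0, and fibroblast *col1a2* was lower (0.155 CPM in iridophore-gene wells and 4.85 CPM in high-*ins* wells). Of the xanthophore markers *aox5* was higher (306 counts in iridophore-gene wells, with 1 well at 5 counts, and 4 in high-*ins* wells) and *gch2* lower (0 counts and 4958 counts in these classes). *dct*, *slc24a5*, *mlpha*, *kdrl*, *lum* and *aox5* each had fewer than 50 counts in high-*ins* wells, so their passing the count limit already implied a difference. The same holds for *col1a2* and *gch2*, which had fewer than 50 counts in iridophore-gene wells and passed through the high-*ins* wells. Median mitochondrial shares were 16.9% in iridophore-gene wells and 12.1% in 48-h high-*ins* wells. The part of these differences in the results was not tested.

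On GRCz11, the build of the table, *ppat*, *paics* and *pfas* lie on chromosome 20. *ppat* spans 25625872 to 25639508 on the plus strand, and *paics* spans 25618114 to 25631256 on the minus strand. Their exons share 766 bases, 28.6% of the exon bases of *ppat* and 18.7% of those of *paics*, and whether strand was used in counting is not stated, so reads from the shared stretch cannot be assigned with certainty. *pfas* spans 25445826 to 25473275 on the plus strand, with 220 exon bases shared with an antisense gene. *atic* (5437390 to 5504130, plus strand) and *gart* (960209 to 999556, minus strand) are on chromosome 1, and 333 exon bases of *atic* (10.1%) overlap *mnx2b* on the other strand. *adsl* is on chromosome 3 (24207243 to 24218622), *impdh1b* on chromosome 4 (18960914 to 18985481) and *gmps* on chromosome 18 (34181655 to 34216886), all 3 on the plus strand with no overlapping gene.

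The genes leading to IMP were at a higher level and in a larger share of wells among iridophore-gene wells at 48 h, whereas the pair leading on to GMP had a smaller pooled ratio. This difference between the gene groups was not tested. The 6 genes up to IMP summed to 1301 CPM (interval 1281 to 1321) in iridophore-gene wells and 41.4 CPM (40.3 to 42.7) in high-*ins* wells. *impdh1b* and *gmps* summed to 178 CPM (171 to 186) in iridophore-gene wells and 72.2 CPM (70.7 to 73.8) in high-*ins* wells. The ratio was 31.4-fold for the genes up to IMP and 2.47-fold for the pair, but 11.3-fold and 5.96-fold within set 1, and 100.4-fold and 2.91-fold within set 2. At least 1 of the 6 genes had 5 or more counts in 19 of 33 iridophore-gene wells (57.6%, interval 39.2 to 74.5) and in 4 of 239 high-*ins* wells (1.67%, 0.458 to 4.23). *impdh1b* or *gmps* reached 5 counts in 6 of 33 iridophore-gene wells (18.2%, 6.98 to 35.5) and in 15 of 239 high-*ins* wells (6.28%, 3.55 to 10.1), and these 2 intervals overlap. All of these intervals cover counting error over wells of 1 sample, so whether they overlap is no test.

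**Figure D1:**
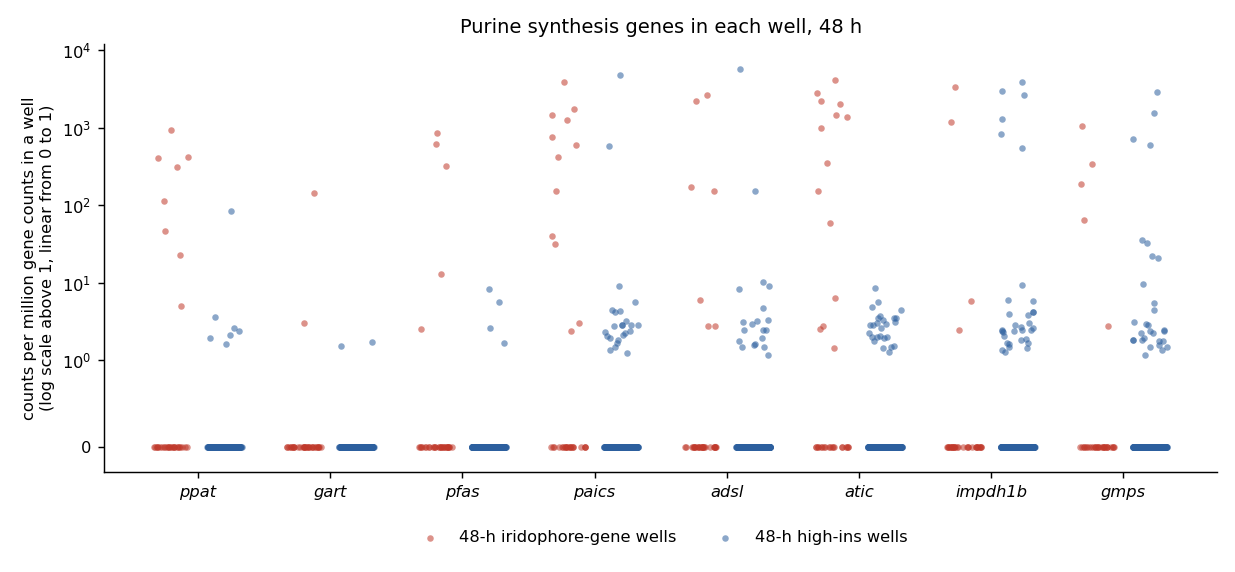
Each point is 1 kept well at 48 h, placed by its CPM for the gene on the x axis, on a log axis above 1 CPM and a linear one from 0 to 1; red points are the 33 iridophore-gene wells and blue points the 239 high-*ins* wells. High values of *atic* up to 4139 CPM are seen in iridophore-gene wells and none above 8.63 CPM in high-*ins* wells, while high values of *impdh1b* and *gmps* occur in both classes.

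Calling a gene higher when its pooled level was at least 4-fold higher (with 1 CPM added), 6 of the 8 genes were called, where 15.5% of the 10558 genes with at least 50 counts over both classes were. The called genes were *ppat*, *gart*, *pfas*, *paics*, *adsl* and *atic*. All 8 passed the limit of 50 counts. Of these, *ppat*, *gart*, *pfas* and *atic* had fewer than 50 counts in high-*ins* wells. These 4 passed through the iridophore-gene wells, so their passing already implied a difference. The median log2 ratio was 3.87 over the 8 genes and -1.51 over all genes compared, and ratios are to be read beside that all-gene median. High-*ins* wells held 112084268 gene counts together and iridophore-gene wells 12871999, so the limit of 50 counts is met more easily through high-*ins* wells. The part of this in the all-gene median and in the shares called was not tested. The log2 ratio of the summed counts was 3.69, and it was 3.35 in set 1 and 4.13 in set 2. Because few wells carry each gene, values without the well with the most counts in each class are given too, an alternative added after seeing the data. Under it 5 genes were called and *gart* was not. Because a well is left out on both sides, it also raised some ratios, that of *adsl* from 2.79 to 5.35 and that of *paics* from 4.94 to 6.84. It is therefore not a stricter limit for every gene.

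*ppat*, the amidophosphoribosyltransferase of the first committed step, had 1006 counts in iridophore-gene wells and 8 in high-*ins* wells. That is 78.2 CPM (73.4 to 83.1) against 0.0714 CPM (0.0308 to 0.141). Over iridophore-gene wells it ran from 0 (median 0) to 943 CPM, with 5 or more counts in 6 of 33, and no high-*ins* well reached 5. The log2 ratio was 6.21, and 5.43 without the top wells. It was present in both sets, at 44.5 CPM in set 1 and 193 CPM in set 2.

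*gart*, which catalyses several early steps in 1 polypeptide, was the scarcest member. It had 65 counts in iridophore-gene wells and 2 in high-*ins* wells, and 98.5% of its counts in iridophore-gene wells came from 1 well of set 1. Its log2 ratio was 2.57, and 0.10 without the top wells, so the call rests on 1 well. No count was seen in the 7 wells of set 2, and the counting interval of the ratio of 283-fold was wide (log2 6.23 to 11.2).

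*pfas*, the synthase that adds the next amide nitrogen, had 788 counts in iridophore-gene wells and 6 in high-*ins* wells. The level was 61.2 CPM (57.0 to 65.7) in iridophore-gene wells, from 0 (median 0) to 854 CPM, and 0.0535 CPM (0.0196 to 0.117) in high-*ins* wells. It reached 5 counts in 4 of 33 wells, all in set 1, and in none of the 239 high-*ins* wells. The log2 ratio was 5.88, and 4.80 without the top wells. In set 2 it had no count, and the ratio there was -0.05.

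*paics*, which carries a carboxylase and a ligase activity, was the member that reached 5 counts in the most iridophore-gene wells, with *atic* next to it, while at 1 or more counts *atic* was in 14 wells and *paics* in 12. It had 5 or more counts in 10 of 33 iridophore-gene wells (30.3%, 15.6 to 48.7) and in 2 of 239 high-*ins* wells (0.837%, 0.102 to 2.99). Pooled, it reached 417 CPM (406 to 428) in iridophore-gene wells and 12.6 CPM (11.9 to 13.3) in high-*ins* wells, where 1 well of set 2 gave 89.0% of the counts. The log2 ratio was 4.94, and 6.84 without the top wells. Both sets carried it, at 403 CPM in set 1 and 463 CPM in set 2.

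*adsl*, the lyase that acts both before IMP and on the branch from IMP to AMP, was less evenly placed. It had 203 CPM (195 to 211) in iridophore-gene wells and 28.4 CPM (27.4 to 29.4) in high-*ins* wells. In each class few wells decided the value: 3 of 33 iridophore-gene wells and 2 of 239 high-*ins* wells reached 5 counts, and the top well gave 69.1% of the counts in iridophore-gene wells and 97.7% in high-*ins* wells. The log2 ratio was 2.79, and 5.35 without the top wells. In set 1 alone it was 1.36, under the 4-fold limit, and in set 2 there was no count in iridophore-gene wells (ratio -0.21).

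*atic*, whose protein closes the ring to give IMP, showed the highest level and the highest log2 ratio of the 8 genes. It had 6917 counts in iridophore-gene wells, with 0 as the lowest and the median well and 4139 CPM as the highest, against 33 counts in high-*ins* wells. The pooled level was 537 CPM (525 to 550) in iridophore-gene wells and 0.294 CPM (0.203 to 0.413) in high-*ins* wells. It reached 5 counts in 9 of 33 iridophore-gene wells (27.3%, 13.3 to 45.5) and in none of 239 high-*ins* wells, where the exact interval allows a share of up to 1.53% (1.26% by a limit of 3 wells). In 26 high-*ins* wells it was at 1 to 3 counts. The log2 ratio of 8.70 was higher than that of 99.6% of the genes compared, stood at 8.45 without the top wells, and was 7.98 in set 1 and 9.70 in set 2. No single well gave more than 19.6% of the *atic* counts of iridophore-gene wells.

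*impdh1b*, the IMP dehydrogenase on the way to GMP, did not reach the 4-fold limit. It had 117 CPM (111 to 123) in iridophore-gene wells, 73.8% of it from 1 well, and 43.1 CPM (41.9 to 44.3) in high-*ins* wells. It reached 5 counts in 2 of 33 iridophore-gene wells and 7 of 239 high-*ins* wells. The log2 ratio was 1.42, and 0.24 without the top wells. The sets differed: iridophore-gene wells had 151 CPM in set 1 and 0.342 CPM, a single count, in set 2, where high-*ins* wells had 57.4 CPM.

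*gmps*, which aminates xanthosine monophosphate to GMP, did not reach the limit either. It had 61.5 CPM (57.3 to 66.0) in iridophore-gene wells and 29.1 CPM (28.1 to 30.2) in high-*ins* wells. It reached 5 counts in 4 of 33 iridophore-gene wells (12.1%, 3.40 to 28.2) and 8 of 239 high-*ins* wells (3.35%, 1.46 to 6.49). Its log2 ratio was 1.05, and 0.60 without the top wells. Iridophore-gene wells of set 2 had 261 CPM and those of set 1 had 2.81 CPM, the reverse of *impdh1b*.

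**Figure D2:**
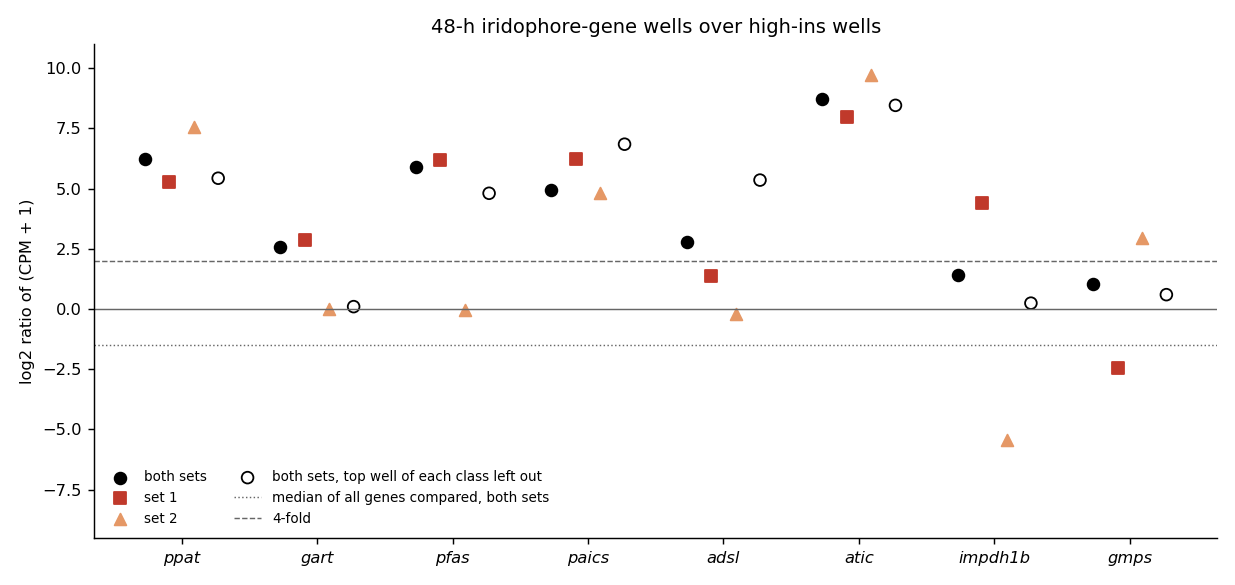
Log2 ratios of pooled CPM plus 1 in 48-h iridophore-gene wells over high-*ins* wells are plotted for each gene: filled circles for both sets, squares for set 1, triangles for set 2 and open circles with the top well of each class left out. The dashed line marks 4-fold and the dotted line the median of all genes compared, -1.51. *ppat*, *paics* and *atic* lie above 4-fold in every case shown, *pfas* and *gart* drop to about 0 in set 2, and *impdh1b* and *gmps* lie on opposite sides of 0 in the 2 sets.

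Per kilobase of exon, levels in iridophore-gene wells were 164 CPM per kb for *atic*, 111 for *adsl* and 102 for *paics*. The others were lower, at 32.6 CPM per kb for *impdh1b*, 29.2 for *ppat*, 11.8 for *pfas*, 10.0 for *gmps* and 1.63 for *gart*. Each level rests on 1 to 10 wells with 5 or more counts, and the spread over wells runs from 0 in every case, so neighbours in this order do not differ beyond it.

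Within the iridophore-gene wells the genes were patchy. Each had a median of 0, and of the detections over the 8 genes, 39 were of 5 or more counts and 18 of 1 to 4 counts. In 48-h high-*ins* wells low counts prevailed, with 19 detections of 5 or more counts and 127 of 1 to 4 counts. No iridophore-gene well held more than 4 of the genes at 5 counts. There were 13 wells with none, 7 with 1, 8 with 2, 4 with 3 and 1 with 4 of them. High-*ins* wells at 48 h with any were 18 of 239, and only 1 of these held more than 1 gene. The 4 iridophore-gene wells under 50000 gene counts had none at 5 counts, and of the 29 deeper wells 20 had at least 1 (69.0%, 49.2 to 84.7), while 18 of 238 high-*ins* wells of that depth did (7.56%, 4.54 to 11.7).

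Of the 28 pairs of genes, 15 were found together at 5 counts in at least 1 iridophore-gene well. *paics* and *atic* shared 3 wells, as did *ppat* with *pfas*, *paics* or *atic*, and *pfas* with *atic*. The well with the highest sum, from set 1, had 1997 counts of *paics*, 1048 of *atic*, 443 of *pfas* and 12 of *ppat*. The next, also from set 1, had 1802 counts of *adsl* and 411 of *paics* and none of *atic*. Over all 650 kept wells, Pearson's r between the log2 levels of 2 members ran between -0.04 and 0.32, a description over wells that share plates and amplification.

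**Figure D3:**
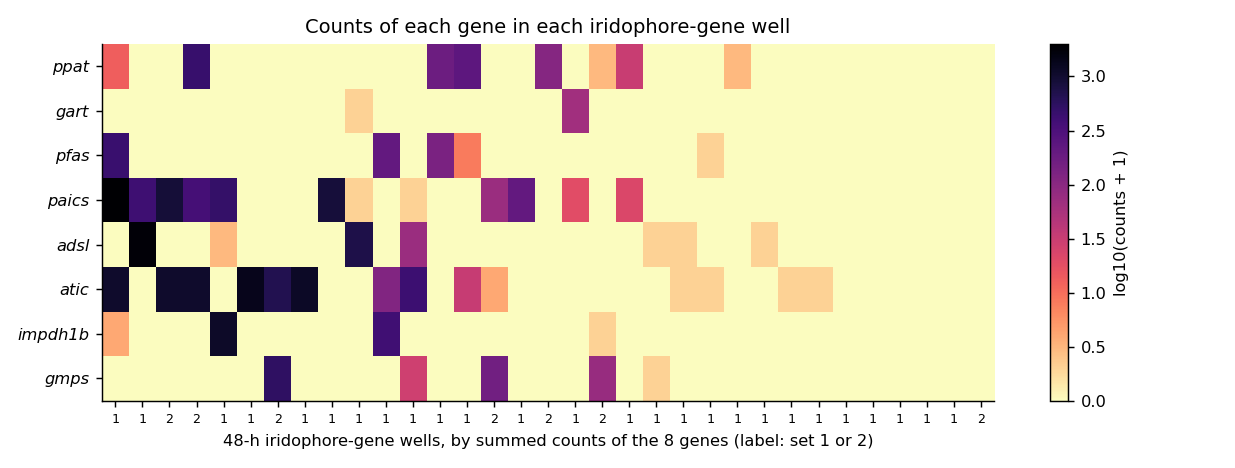
Each column is 1 of the 33 iridophore-gene wells at 48 h, ordered by the summed counts of the 8 genes and labelled by set, and colour gives log10 of counts plus 1 for the gene in each row. High counts stand beside zeros, at most 4 genes reach 5 counts in a well, and 13 wells have none at that level.

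The contrast in shares was seen at equal depth too. With each well thinned to 50000 counts and shallower wells left out (4 iridophore-gene wells and 1 high-*ins* well), *atic* had at least 1 count in 9 of 29 iridophore-gene wells (31.0%, 15.3 to 50.8) and 5 of 238 high-*ins* wells (2.10%, 0.686 to 4.83). Before thinning these shares were 42.4% in iridophore-gene wells and 10.9% in high-*ins* wells. The thinned shares of *paics* were the same as those of *atic*. *gmps* had at least 1 count in 4 of 29 thinned iridophore-gene wells (13.8%, 3.89 to 31.7) and 10 of 238 high-*ins* wells (2.03 to 7.59%). *impdh1b* had at least 1 in 6.90% of thinned iridophore-gene wells (0.846 to 22.8) and 2.94% of high-*ins* wells (1.19 to 5.97), and both pairs of intervals overlap. Unthinned, at 1 count or more, *impdh1b* was in 12.1% of iridophore-gene wells and 13.8% of high-*ins* wells.

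**Figure D4:**
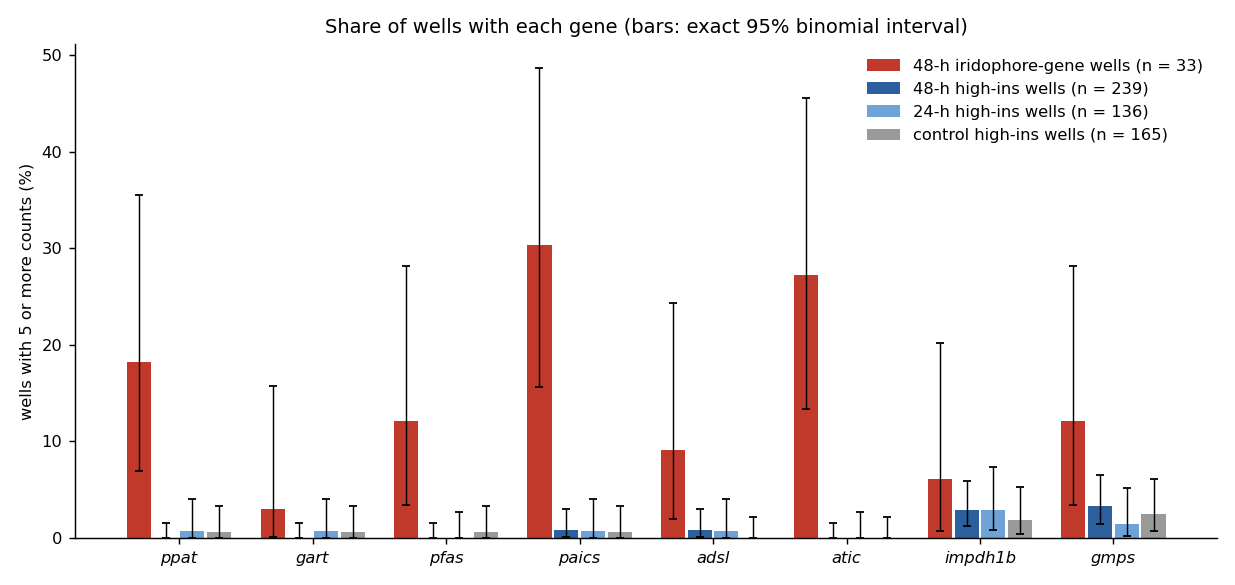
Bars give the share of wells, in percent from 0, with 5 or more counts of each gene, and whiskers the exact 95% binomial interval, for 48-h iridophore-gene wells and for high-*ins* wells at 48 h, at 24 h and of the control. *paics* (30.3%) and *atic* (27.3%) are highest in iridophore-gene wells, and no high-*ins* bar passes 3.35%.

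The 48-h wells in neither class had a median of 28276 gene counts, and 30 of 57 were under 50000. The genes up to IMP summed to 4.11 CPM (3.03 to 5.45) there, and 1 of 57 wells had 5 or more counts of any of them. That well had 6 counts of *atic* and 4 of *ppat* in 7330 gene counts, and a *defbl1* and *apodb* share of 0.900%, just under the limit. *impdh1b* and *gmps* summed to 393 CPM (381 to 404), from 4 wells with 5 or more counts.

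Among high-*ins* wells the treatment groups could be compared only through very few cells. Called at 2-fold with 1 CPM added, 3 of the 8 genes were higher at 24 h than in the control and 2 were lower, where 30.6% of 9683 genes were higher and 40.7% were lower. At 48 h 2 were higher and 1 was lower than in the control, where 38.4% of 11511 genes were higher and 26.1% were lower. At 48 h against 24 h 1 was higher and 2 were lower, where 45.2% of 11056 genes were higher and 22.9% were lower. In each comparison 6 of the 8 genes passed the limit of 50 counts, all but *pfas* and *atic*. *adsl* had 10 counts in the control, and at 48 h *ppat* had 8 and *gart* had 2. In comparisons with those groups these genes passed through the other group, so their passing already implied a difference. The medians of all genes compared were -0.37 at 24 h against the control, 0.47 at 48 h against the control and 0.75 at 48 h against 24 h. These 3 comparisons share their wells.

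*adsl* and *gmps* were the 2 genes higher than in the control at both times. *adsl* had 28.4 CPM at 48 h, 22.7 CPM at 24 h and 0.0935 CPM in the control. Of its counts 1 well gave 97.7% at 48 h and 99.5% at 24 h, and without the top wells the log2 ratios against the control dropped to 0.61 and 0.05, from 4.75 and 4.44. *gmps* had 29.1 CPM at 48 h, 39.6 CPM at 24 h and 2.90 CPM in the control. The log2 ratios against the control, 2.95 at 48 h and 3.38 at 24 h, were 3.30 and 2.59 without the top wells, yet 5 or more counts were found in 8 of 239 wells at 48 h, 2 of 136 at 24 h and 4 of 165 in the control. These shares, 3.35%, 1.47% and 2.42%, have intervals that overlap.

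*ppat* and *paics* were lower than in the control at 24 h. *ppat* had 0.0714 CPM at 48 h, 5.50 CPM at 24 h and 14.3 CPM in the control, with 98.2% of the 24-h counts and 99.5% of the control counts in 1 well each. *paics* had 12.6 CPM at 48 h, 2.36 CPM at 24 h and 16.3 CPM in the control, with at least 89.0% from 1 well in each group. Without the top wells the log2 ratios at 24 h against the control were 0.031 for *ppat* and 0.0063 for *paics*. *gart* had 0.0178 CPM at 48 h, 3.03 CPM at 24 h and 0.552 CPM in the control, and reached 5 counts in 1 well at 24 h, 1 in the control and none at 48 h.

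Pooled over wells, *impdh1b* was the highest of the 8 genes in CPM in high-*ins* wells of every group, at 43.1 CPM (41.9 to 44.3) at 48 h, 69.0 CPM (67.1 to 71.0) at 24 h and 49.3 CPM (48.0 to 50.6) in the control. The 48-h sets differed, with 6.10 CPM in set 1, below *adsl* (102 CPM) and *gmps* (19.7 CPM), and 57.4 CPM in set 2. Per kilobase of exon it was 12.1 CPM per kb at 48 h, where *adsl* had 15.5. The log2 ratio against the control was -0.19 at 48 h, and past the 2-fold limit at -2.83 in set 1 alone. At 24 h it was 0.48, and -0.61 where wells had 1000 genes or more, both under the limit. It reached 5 counts in 7 of 239 wells at 48 h, 4 of 136 at 24 h and 3 of 165 in the control. *atic* and *pfas* stayed below 0.3 CPM in the high-*ins* wells of all 3 groups, *atic* reached 5 counts in none, and *pfas* in 1 control well.

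**Figure D5:**
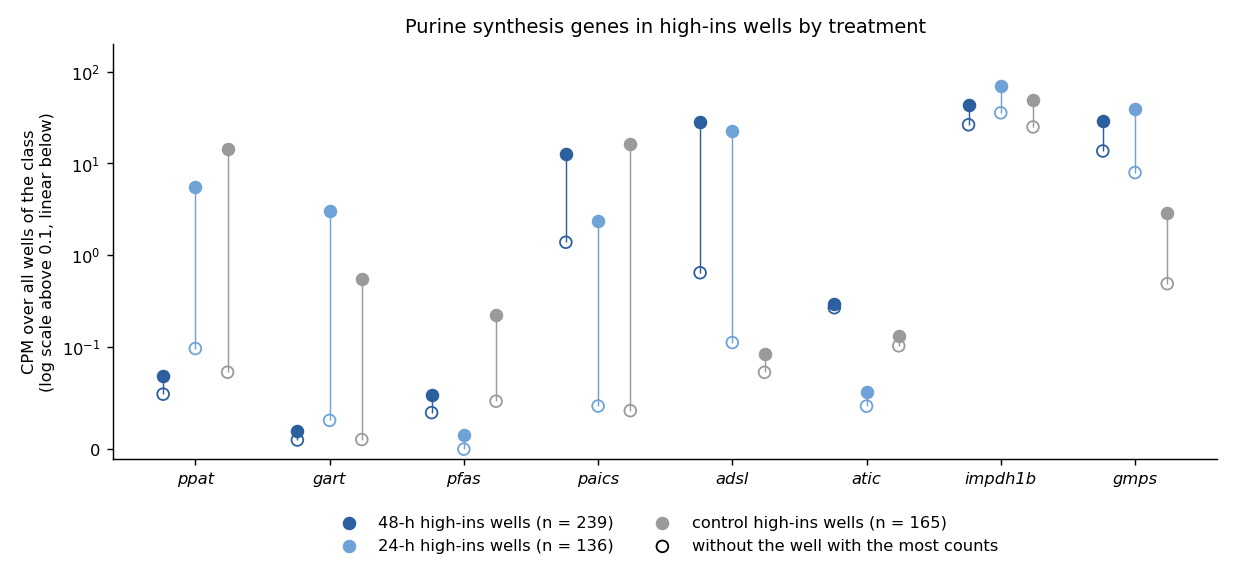
Filled circles give the CPM pooled over all high-*ins* wells at 48 h, at 24 h and of the control for each gene, on a log axis above 0.1 CPM and a linear one below, and open circles the same without the well with the most counts. At 24 h the open circles of *ppat*, *gart*, *paics* and *adsl* lie at or below 0.112 CPM, while those of *impdh1b* lie between 25.0 and 35.6 CPM in all 3 groups. The open circles of *impdh1b* still rest on few wells, in the control mainly on 1 well at 3255 CPM.

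A single 24-h high-*ins* well carried 3 of the early genes at once. It had 387 counts of *ppat*, 215 of *gart* and 166 of *paics* in 654857 gene counts, 5602 counts of *ins* and none of *defbl1* or *apodb*. It was the source of the 24-h values of these genes. In the neither class 1 well at 24 h had 89 counts of *atic*, 78 of *adsl* and 26 of *gmps*, also with no count of *defbl1* or *apodb*.

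Neighbouring pathways were compared between iridophore-gene and high-*ins* wells at 48 h over genes with at least 50 counts, at the same 4-fold limit. Of all 10558 genes compared, 15.5% were at least 4-fold higher in iridophore-gene wells and 43% were at least 4-fold lower. The counts for each list are to be read against these shares and the all-gene median of -1.51. All genes called lower in these lists except *glula* and *ctps1a* had fewer than 50 counts in iridophore-gene wells. Among those called higher, *aprt*, *urahb*, *mthfd1b* and *shmt2* had fewer than 50 counts in high-*ins* wells. These genes passed the count limit through the class where they are higher, so their passing already implied a difference. Of PRPP supply, 3 genes were measured and 0 were called, with *prps1b*, a PRPP synthetase, at 76.1 CPM in iridophore-gene wells, 99.0% of it from 1 well, and 73.4 CPM in high-*ins* wells. Of the other IMP dehydrogenases and the AMP branch, 2 were measured and *adssl*, an adenylosuccinate synthase, was lower (0.0777 CPM in iridophore-gene wells and 11.9 CPM in high-*ins* wells). *impdh2* had 0.466 CPM in iridophore-gene wells and 2.61 CPM in high-*ins* wells. The log2 medians of these lists were -0.28 and -2.44, against -1.51 over all genes.

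Purine salvage, which rebuilds nucleotides from free bases, had calls in both directions. Of 9 measured genes 4 were higher and 4 lower (median 0.73). *pnp4a*, a purine nucleoside phosphorylase that is also a marker of iridophores, had 2885 CPM in iridophore-gene wells, with 5 counts or more in 26 of 33, and 0.981 CPM in high-*ins* wells. *hprt1l* had 625 CPM in iridophore-gene wells and 1.28 CPM in high-*ins* wells, while *hprt1*, hypoxanthine phosphoribosyltransferase, had 3 counts in iridophore-gene wells and 6637 in high-*ins* wells. Also higher were *ada2b* (70.7 CPM in iridophore-gene wells and 0.517 CPM in high-*ins* wells) and *aprt* (102 counts from 1 iridophore-gene well and 3 counts in high-*ins* wells). Also lower were *adkb*, *ada2a* and *pnp4b*, the last with 99.1% of its counts in high-*ins* wells from 1 well. Of purine breakdown, 3 of 16 matched genes were measured and 2 were higher: *uraha*, a hydroxyisourate hydrolase and a listed iridophore marker, with 3208 CPM in iridophore-gene wells (31 of 33 at 5 counts) and 1.38 CPM in high-*ins* wells, and *urahb*, with 52 counts from 1 iridophore-gene well and 0 in high-*ins* wells.

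One-carbon and folate genes, whose pathway supplies formyl groups for the ring, had calls in both directions as well, with 5 higher and 5 lower of 11 (median -0.58). *shmt1*, cytosolic serine hydroxymethyltransferase, had 277 CPM in iridophore-gene wells and 6.47 CPM in high-*ins* wells, with 7 of 33 iridophore-gene wells and 1 of 239 high-*ins* wells at 5 counts. *mthfd2* had 125 CPM in iridophore-gene wells and 15.5 CPM in high-*ins* wells, and *fpgs* had 42.5 CPM and 2.86 CPM in these classes. *mthfd1b*, with 48.0 CPM in iridophore-gene wells and 0.285 CPM in high-*ins* wells, rested on 1 iridophore-gene well. Among the lower were *mthfs*, *dhfr* and *aldh1l2*, each with at most 4 counts in all iridophore-gene wells together. For *aldh1l2*, 1 well gave 99.5% of the counts in high-*ins* wells.

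In serine, glycine and glutamine supply, 0 were higher and 4 lower of 9 (median -0.86), the lower ones being *phgdh*, *slc38a2*, *gls2b* and *glula*. *psat1* and *psph*, later enzymes of serine synthesis, had 281 and 287 CPM in iridophore-gene wells, against 132 and 105 CPM in high-*ins* wells, under the limit. In pyrimidine synthesis 1 was higher and 6 lower of 7 (median -2.48). The higher one was *uck2b*, a uridine-cytidine kinase, from 1 well, and *umps*, *ctps1a*, *cad* and *uck1* were among the lower. Of the counts in high-*ins* wells, 1 well gave 97.0% for *cad* and 99.0% for *uck1*. In the pentose phosphate pathway 2 of 5 were higher (*pgls* and *rpia*, in 1 and 2 iridophore-gene wells), with a median of -0.85. Of the cell cycle genes 0 were higher and 2 lower of 6 (*rrm1* and *cdk1*, median -1.40), each from 1 high-*ins* well.

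The 10 genes whose log2 levels over the 650 kept wells were most like that of the 8 members' sum were *crip1*, *apodb*, *uraha*, *defbl1*, *anxa5b*, *cfl1l*, *si:ch211-105c13.3*, *lypc*, the gene listed as *AQP1*, and *s100v2*. Pearson's r ran between 0.40 and 0.47 among 13980 genes with at least 50 counts, and wells share depth and plates, so this is a description. All 10 were at least 4-fold higher in iridophore-gene wells, as were 15.5% of the 10558 genes compared between the classes. They were picked by likeness to a sum that was itself higher in those wells, so this largely follows from the choice. *apodb* and *defbl1* are the genes that define these wells.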

How the data were processed

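The authors deposited raw read counts per gene and well. Per the labels and methods, Smart-seq2 libraries of 1 sorted cell per well were demultiplexed with bcl2fastq 2.19.1, trimmed, aligned to GRCz11 with GSNAP and counted with featureCounts 2.0.1 on Ensembl genes. The deposited gene length, an other value of summed exon bases, was used for levels per kilobase. The 92 spike-in RNAs were left out of totals. Reads carry no molecular tags, so counts are not molecules.

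The members and lists were chosen with earlier results of these data known. Of 195 listed genes, 178 were matched, 137 by symbol. The other 41, and *impdh1b* and *apodb*, carry a family symbol and were identified by the chromosome of the RefSeq gene, for which GRCz12tu served for names only. The mitochondrial share was taken over 13 protein-coding genes.

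Counts were pooled over the wells of a class and divided by pooled gene counts (CPM), and 1 CPM was added before log2 ratios. Genes with at least 50 counts over both sides were compared, and the limit for a call was 4-fold between classes and 2-fold between groups. With 1 sample per group no test was made. The text names all 8 members, listed genes past 4-fold (at most 4 per list and direction, largest first) and the 10 genes most alike, besides genes given as values, and some listed genes are not reported here. Alternatives changed the class limits, well limits, totals, pseudocount (0.1 or 5), count filter, fold, depth (thinning to 50000 or 200000 counts) and wells. Of the wells, 4 without a group entered no comparison. The procedure was tested on simulated Poisson counts, which lack the uneven spread over wells seen here. That simulation therefore does not bear on calls that rest on single wells. Computation used scipy 1.17.1, pandas 2.3.3 and numpy 2.4.6 under Python 3.11.15, with figures by matplotlib 3.10.9.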

Additional observations from a re-analysis of the deposited data

Results flagged for a closer look

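*impdh1b* and *gmps* differed in direction between the 2 sets of the 48-h group, each past 4-fold. For iridophore-gene over high-*ins* wells, the log2 ratio of *impdh1b* was 4.42 within set 1 but -5.44 within set 2, and that of *gmps* was -2.44 within set 1 but 2.96 within set 2. Whether the sets differ was not tested, set 2 has 7 iridophore-gene wells, and 5 or more counts were found in 2 and 0 of these wells in set 1 and set 2 for *impdh1b*, and in 1 and 3 for *gmps*.

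Wells outside every comparison also carried the genes. The 3 wells labelled RNA, with 154171 gene counts together, had 90.8 CPM of *paics*, 45.4 CPM of *adsl* and 32.4 CPM of *atic*, from 14, 7 and 5 counts, and the counting intervals of these 3 genes lay above the level in control high-*ins* wells. The 37 wells at 48 h removed by the limits, all of them over 40% mitochondrial counts, had 37.9 CPM of *paics*, 76.5 CPM of *atic*, 46.9 CPM of *gmps* and 0.469 CPM of *adsl*, and for the first 3 genes 1 well each gave nearly all counts (476, 971 and 597). Of the 43 wells removed over all groups, 8 had *defbl1* and *apodb* at 1% or more. The 6 removed wells of the 24-h and control groups had 10.4 CPM of *gmps*, all from 1 well with 26 counts.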

How the results depend on the processing

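None of the alternatives tried for iridophore-gene against high-*ins* wells turned the direction of the members' sum or brought it under 4-fold. Its log2 ratio, 3.69, was 3.63 with the *defbl1* and *apodb* limit at 0.5%, 3.61 with *ins* over 10000, 3.74 with high-*ins* wells of all groups, 3.46 with no limits on wells and also without the top iridophore-gene well, 3.85 without the top well on both sides, 4.03 at 20% mitochondrial counts, 3.80 at 1000 genes, 3.82 without mitochondrial counts and 3.51 without *ins* in the total, 3.32 as the mean of wells, 3.64 with a pseudocount of 5, 4.13 without CSN48-1 and 3.35 without CSN48-2. The count of members called ran between 4 and 8. Without CSN48-1 the ratios of *gart*, *pfas* and *adsl* turned to -0.018, -0.053 and -0.21, because set 2 had no count of them. The ratios of *impdh1b* and *gmps* were above 0 in 15 of 17 alternatives each. Their lowest values were -5.44 for *impdh1b* without CSN48-1 and -2.44 for *gmps* without CSN48-2.

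The comparisons between groups depended on single wells. At 24 h against the control, the 5 members past 2-fold were 3 without the top treated well or with a pseudocount of 5, and 1 without the top wells of both. There *gart* turned to -0.60 with *ins* over 10000 and -0.59 without the top treated well, *paics* to 1.85 at 20% mitochondrial counts and 0.0063 without the top wells of both, and *ppat* to 0.031 without these. At 48 h against the control, the 3 members were 5 with all kept wells or without CSN48-2. At 48 h against 24 h, the 3 were 1 with *ins* over 10000, without the top wells of both, with a limit of 500 counts or thinned to 50000 counts, and 5 without the top 48-h well, while *paics* turned to -0.49 without the top 48-h well and -0.89 at 1000 genes, and *ppat* to 0.46 with all kept wells. *impdh1b* was -2.83 at 48 h against the control without CSN48-2 and -0.61 at 24 h at 1000 genes. Beyond the alternatives' own construction, the cause was not tested. Leaving out the top wells on both sides was chosen after seeing the data. Members of low count limit what can be seen, since most wells hold no read of a given gene. No paired analysis was possible because wells share no replicate number between groups.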
